A study of Mus musculus with 2 samples.

Results

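Facing m6A sites are pairs of N6-methyladenosine positions listed on opposite strands of the same chromosome, so that each is assigned to RNA of the strand opposite its partner. The m6A positions of both replicate lists of mouse testis were pooled, and each chromosome, start and strand was kept once, which gave 12516 positions. A position was taken as a member when a pooled position on the opposite strand started at most 5000 nt away. This held for 681 positions, or 5.44% of the pool (95% Wilson interval 5.06 to 5.85%), with 340 on the plus strand and 341 on the minus strand. The members were chosen by strand and distance, so counts by strand and distance are a description without a test.

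The tissue was testis of control mice at 12 days post-partum, from a series that also concerns Mettl3 conditional knockout mice. The labels name B6D2F1, DBA2 and C57BL6 mice for the study without saying which gave these samples, and they give no allele or agent for the controls. The design holds 1 group of 2 replicates, and whether separate animals gave them is not said, so their spread may be technical. The sites came from miCLIP, which crosslinks RNA fragments to an antibody against m6A and reads the methylated base from the marks the crosslink leaves in the cDNA. Each list gives intervals of 5 nt with no read count or strength, so the depth behind a site is unknown, and no gene level or cell marker could be read to check the tissue. Replicate 1 listed 7019 distinct positions and replicate 2 listed 7182.

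m6A is placed on nuclear RNA by a complex whose catalytic subunit is METTL3, mostly within a short sequence context, and is read by YTH-domain proteins that act on splicing, export, translation and decay. In messenger RNA it is known to concentrate around stop codons and in 3′ untranslated regions. Because miCLIP keeps the strand of the RNA, close positions on opposite strands mark a region with RNA of both strands where both sites were called correctly, which was not tested. A pair is called convergent here when the plus-strand position has the lower coordinate, the order met where the 3′ ends of neighbouring genes point at each other. It is called divergent when the minus-strand position has the lower coordinate, the order met between genes that start back to back. Inside a region where transcripts overlap, either order can be met. No gene was assigned to any position here, because the lists are on mm9 and no annotation or genome of that build was used, so no sequence is shown.

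The 681 positions formed 573 pairs, of which 492 were convergent and 81 divergent, and 0 pairs had the same start. The convergent share was 85.9% (82.8 to 88.5%). It was 82.2% among the 152 pairs with both positions in replicate 1 (75.4 to 87.5%) and 88.5% among the 200 pairs with both in replicate 2 (83.3 to 92.2%). Convergent pairs were therefore the more frequent kind in each replicate alone, and the intervals of the replicates overlapped. Of the convergent pairs, 118 were complete in replicate 1 only, 170 in replicate 2 only and 7 in both, while 197 appeared only when the lists were combined. For divergent pairs these counts were 24, 20, 3 and 34. Intervals here treat pairs as independent and cover counting error only, although pairs that share a position are not independent.

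Convergent pairs outnumbered divergent ones in every distance bin up to 5000 nt, but the bins up to 250 nt held too few pairs to show an excess. Within 100 nt there were 6 convergent and 3 divergent pairs, from 101 to 250 nt 6 and 2, and from 251 to 500 nt 13 and 4. Between 501 and 1000 nt the counts were 48 and 11. In these close bins the convergent share ran from 66.7% to 81.4%. Its interval included equal shares within 100 nt (35.4 to 87.9%) and from 101 to 250 nt (40.9 to 92.9%). Over the first 1 kb the share was 78.5% (73 of 93 pairs, 69.1 to 85.6%). From 1001 to 2000 nt there were 83 convergent and 9 divergent pairs, from 2001 to 3000 nt 73 and 25, and from 3001 to 4000 nt 102 and 19. The interval from 4001 to 5000 nt held the most convergent pairs, 161, and the fewest divergent ones of the 1 kb intervals, 8, a convergent share of 95.3% (90.9 to 97.6%). Those 161 pairs came from 76 separate loci, and a locus with several positions enters the count many times. With each change of strand between neighbouring positions counted once, the fifth kb was not the highest, at 37 convergent changes against 40 in the first kb. Over all pairs the median distance was 3187.5 nt for convergent and 2497 nt for divergent pairs. With each locus of 1 orientation entered once, by its closest pair, the median was 2403 nt for convergent and 2497 nt for divergent loci. The longer convergent median was thus absent from that count.

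Same-strand pairs of the same pool followed another course. They numbered 5862 within 1 kb, 1926 from 1001 to 2000 nt and 671 from 4001 to 5000 nt, so they became fewer with each kb. Convergent pairs counted in all combinations numbered 73 in the first kb and 161 in the fifth, a rise that was absent from the count of strand changes given further on. The rule ended at 5000 nt, and beyond it the convergent count fell back to 130 from 5001 to 6000 nt and 83 from 6001 to 7000 nt, while divergent pairs numbered 15 and 26. The convergent share was 81.1% at 7001 to 8000 nt and 73.9% at 8001 to 9000 nt. At 9001 to 10000 nt there were 78 convergent and 51 divergent pairs, a share of 60.5% (51.8 to 68.5%). That was the lowest share of any kb up to 12000 nt. It was 77.3% (69.0 to 83.9%) at 10001 to 11000 nt and 63.1% (53.5 to 71.8%) at 11001 to 12000 nt. Replicate 1 alone had 27, 24, 18, 19 and 37 convergent pairs in the 5 successive kb, and replicate 2 alone had 20, 29, 24, 47 and 57. The fifth kb held the most in each list, by a wider margin over the first in replicate 2.

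**Figure D1:**
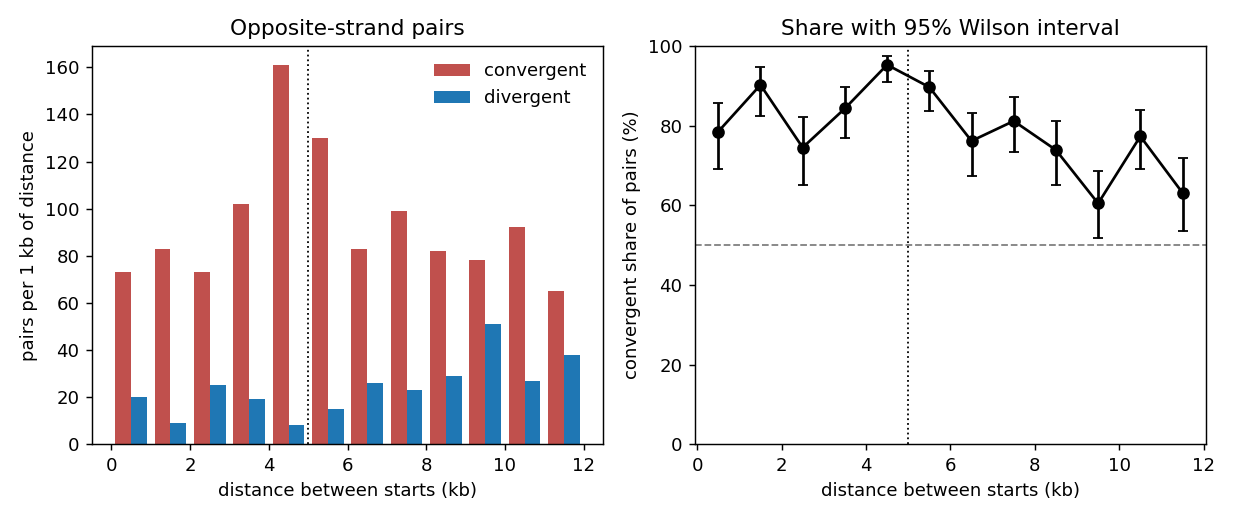
The left panel counts opposite-strand pairs of pooled positions (vertical axis, pairs) in each 1 kb of distance between starts (horizontal axis, kb), with convergent and divergent pairs as separate bars, and the right panel gives the convergent share in percent with its 95% Wilson interval. The dotted line marks the 5000 nt limit, the dashed line equal shares, and convergent pairs in all combinations are highest from 4001 to 5000 nt, at 161 against 8 divergent pairs, a peak that strand changes counted once (37 there, 40 in the first kb) do not show.

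Dense stretches enter a count of pairs many times, so the order of strands was also read from neighbouring positions alone. Along a chromosome, a change from plus to minus must be followed by a change from minus to plus, and the number of both kinds is equal by construction apart from the chromosome ends: 1616 changes were convergent and 1614 divergent. Their gaps were not alike. Of the convergent changes, 173 spanned at most 5000 nt, or 10.7% (9.29 to 12.3%), against 48 of the divergent ones, or 2.97% (2.25 to 3.92%). In the 5 successive kb there were 40, 38, 28, 30 and 37 convergent changes and 15, 6, 13, 9 and 5 divergent ones. Convergent changes were the more frequent in each kb, but they did not rise with distance, unlike the count of all pairs. The median gap over all changes was 87585.5 nt for convergent and 133776 nt for divergent ones. Among changes within 5000 nt the convergent share was 78.3% (72.4 to 83.2%), lower than over all pairs.

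**Figure D2:**
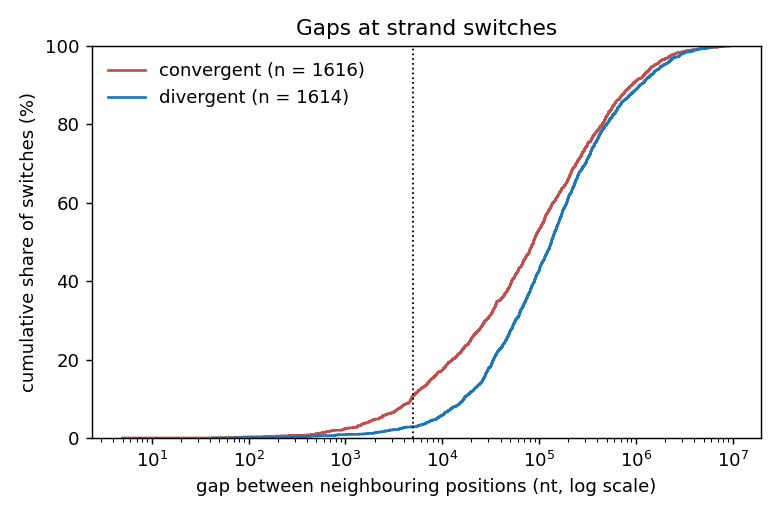
The curves give the cumulative share (vertical axis, percent) of strand changes between neighbouring pooled positions whose gap is at most the value on the horizontal axis (nt, log scale), for 1616 convergent and 1614 divergent changes. The convergent curve lies above the divergent one at the dotted 5000 nt limit, at 10.7% against 2.97%.

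Members linked through facing pairs were joined into loci, of which there were 206. In 159 loci all pairs were convergent, in 35 all were divergent, and 12 held both kinds. Most loci were small: 81 held 1 position on each strand and nothing else, the median was 3 positions and the largest held 12. The 34 loci with 5 or more positions carried 31.0% of all members. Of these 34, 25 were convergent, 1 divergent and 8 of both kinds. Several positions on each strand were found in 29 of the 159 convergent loci and in 1 of the 35 divergent loci. A single position on each strand made up 58 convergent and 23 divergent loci. Convergent loci thus held more positions than divergent ones in these lists, a difference that was not tested, since positions of 1 locus share a source.

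A facing pair was present in each replicate on its own in 29 of the 206 loci, or 14.1% (9.98 to 19.5%). In 56 loci only replicate 1 had such a pair, in 76 only replicate 2, and in 45 a pair arose only across the lists. The share with a pair in both replicates was 4.94% for the 81 loci of 2 positions (1.94 to 12.0%), 9.89% for the 91 loci of 3 or 4 (5.29 to 17.7%) and 47.1% for the 34 loci of 5 to 12 (31.5 to 63.3%). A locus with more positions has more chances of a pair in each list. By orientation, 22 of 159 convergent, 3 of 35 divergent and 4 of 12 loci of both kinds had a facing pair in each replicate. Of the 29 loci, 8 had no position in common between the lists, so that each replicate marked both strands at positions of its own.

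Only 10 pairs, in 9 loci, had both positions in both lists, and 7 of them were convergent. The closest lay on chromosome 16, with a plus-strand position at 35981669 to 35981673 and a minus-strand position at 35981823 to 35981827 (mm9, 1-based), 154 nt apart and convergent. The plus-strand position stood on 2 lines of replicate 1 and on 1 line of replicate 2, and the minus-strand position on 1 line of each. No other pooled position belonged to this locus. The other such pair within 1 kb was divergent and lay on chromosome 5, with the minus-strand position at 46060444 and the plus-strand position at 46061223, 779 nt apart. These 2 pairs met the naming rule, and both were found in full in each replicate.

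The remaining 8 pairs with both positions in both lists were farther apart and are named after their values were seen. Chromosome 17 held 2 of them, convergent, at 34086420 and 34087739 (1319 nt apart) and at 45704618 and 45707693 (3075 nt apart). On chromosome 11 a convergent pair at 69728267 and 69730703 lay 2436 nt apart and formed a locus by itself. Chromosome 5 held 3 convergent pairs, of which those from 145888918 and 145888951 shared their minus-strand position at 145892387 and the third joined 115254495 to 115258517. The divergent ones lay on chromosome 8, from 72655802 to 72657644 (1842 nt), and on chromosome 7, from 106774321 to 106777457 (3136 nt). Coordinates in this paragraph are the first bases of the intervals.

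The 5 closest convergent pairs came within 88 nt. At chromosome 7 the plus-strand interval 4099773 to 4099777 and the minus-strand interval 4099778 to 4099782 adjoined without overlap, with starts 5 nt apart, the smallest distance of any pair. The plus-strand position was on 1 line of each list and the minus-strand position on 1 line of replicate 2 only. That pair belonged to a convergent locus of 6 positions from 4096364 to 4102863 with a facing pair in each replicate. The next convergent pairs lay on chromosome 17 at 24733387 (42 nt, both in replicate 2), on chromosome 9 at 107953944 (59 nt, 1 position in each replicate), on chromosome 11 at 3547501 (75 nt, both in replicate 1) and on chromosome 2 at 69709178 (88 nt). In the last, the plus-strand position was on 1 line of replicate 1 and 2 of replicate 2, and the minus-strand position on 2 lines of replicate 1 only.

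The 5 closest divergent pairs ranged from 42 to 237 nt. They lay on chromosome 9 at 21078147 (42 nt), on chromosome 7 at 19683616 (74 nt), on chromosome 6 at 120314367 (81 nt), on chromosome 7 at 140177582 (222 nt) and on chromosome 11 at 58791193 (237 nt), each given by its minus-strand position. Replicate 1 held both positions in the first 4 of these, and the pair on chromosome 11 had 1 position in each replicate. Among these 10 positions, only the minus-strand position at 19683616 was in both lists. At the outer limit, the last pair inside 5000 nt was a convergent one of 4997 nt on chromosome 9, and the first outside was a convergent one of 5002 nt on chromosome 19.

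The locus with most positions lay on chromosome 11, from 4960071 to 4965104. It had 3 plus-strand positions within 203 nt, followed by 9 minus-strand positions over 4415 nt, and all 26 pairs were convergent. The first minus-strand position started 411 nt beyond the last plus-strand one. Replicate 1 held 8 and replicate 2 held 5 of the 12 positions, with 1 in common, the minus-strand position at 4960855. Both replicates marked both strands there, with 7 pairs in replicate 1 alone and 6 in replicate 2 alone.

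The locus on chromosome 4, from 122534815 to 122540227, was the one of the 5 largest with both orientations. Plus-strand positions at 122534815 to 122535591 came first, then minus-strand positions from 122536575, then a lone plus-strand position at 122537452 among them, which was in replicate 2 only and accounted for the 3 divergent pairs. The other 18 of its 21 pairs were convergent. On chromosome 12, from 70286219 to 70291001, 7 plus-strand positions within 718 nt faced 2 minus-strand positions across at least 3884 nt, so that all its 14 pairs lay at that distance or farther. On chromosome 17, from 45704618 to 45708823, a single plus-strand position found in both replicates faced 8 minus-strand positions. Of these 8, replicate 1 held 3 and replicate 2 held 6.

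The fifth, on chromosome 11 from 106109354 to 106113841, was uneven between replicates. Replicate 2 held 7 of its 8 positions and all 5 on the minus strand, whereas replicate 1 held only the plus-strand position at 106109354. It had 10 pairs in replicate 2 alone and 0 in replicate 1 alone. The 5 loci together carried 84 of the 573 pairs. With them left out, the fifth kb of distance still held 134 convergent and 8 divergent pairs, and the convergent share over all distances was 84.0%.

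**Figure D3:**
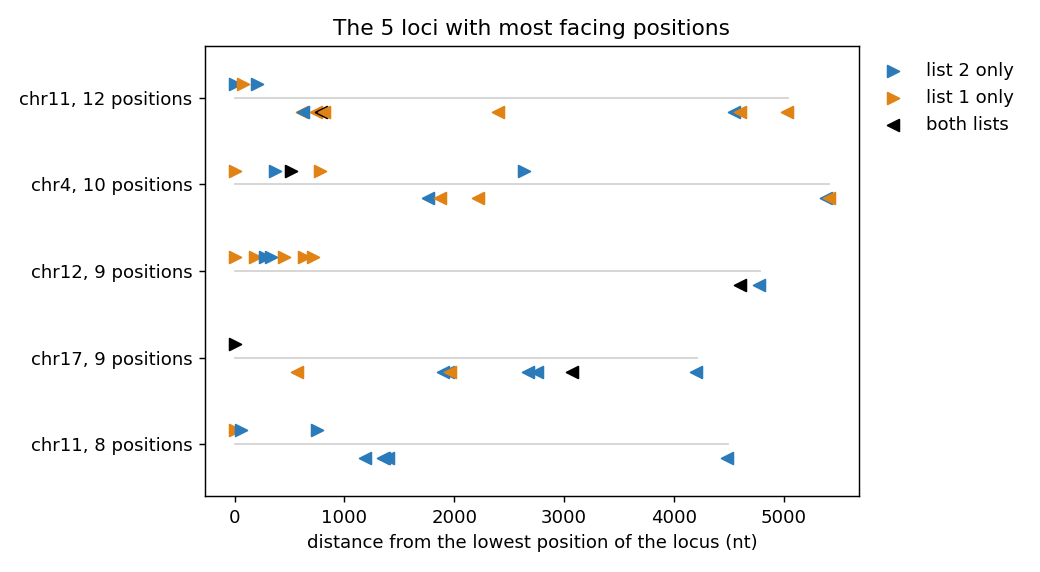
Each row is a locus, with the distance from its lowest position on the horizontal axis (nt), right-pointing marks above the line for plus-strand positions and left-pointing marks below it for minus-strand positions, and colours for the replicate lists; close marks overlap. In 4 of the 5 loci every plus-strand position precedes every minus-strand one; on chromosome 4 a plus-strand position at 2637 nt lies beyond minus-strand positions.

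Facing positions were spread unevenly over the chromosomes. Chromosome 11 had the highest share, with 96 of 1099 pooled positions, or 8.74% (7.21 to 10.6%), and chromosome 17 followed with 55 of 678, or 8.11% (6.29 to 10.4%). The intervals of these chromosomes overlapped. The X chromosome had the lowest share of those with a member, 6 of 411 or 1.46% (0.671 to 3.15%), next to chromosome 14 with 6 of 391 or 1.53% (0.705 to 3.31%). The share did not follow the density of sites alone. Chromosomes 17 and 19 carried 7.12 and 7.13 pooled positions per Mb, with length taken up to the highest listed position. But chromosome 19 had 13 members among 437 positions, or 2.97% (1.75 to 5.02%), below the interval of chromosome 17. Those 13 members formed 5 loci, against 17 loci on chromosome 17. The intervals treat positions as independent, although positions of 1 locus become members together, and the difference was not tested. In replicate 1 the shares of chromosomes 17 and 19 were 7.16% and 2.63%, and in replicate 2 they were 10.03% and 3.44%, so the order was the same in both lists. These shares count membership in the pool, where the partner may be in the other list, so the lists are not separate measurements here. Chromosome 10 had 28 convergent and 0 divergent pairs, and chromosome 11 had 82 and 20. Chromosomes 15 and 16, with 10 and 9 convergent pairs, had no divergent pair either. The 28 pairs of chromosome 10 came from 10 loci, of which 1 gave 10 pairs, so they are not independent.

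**Figure D4:**
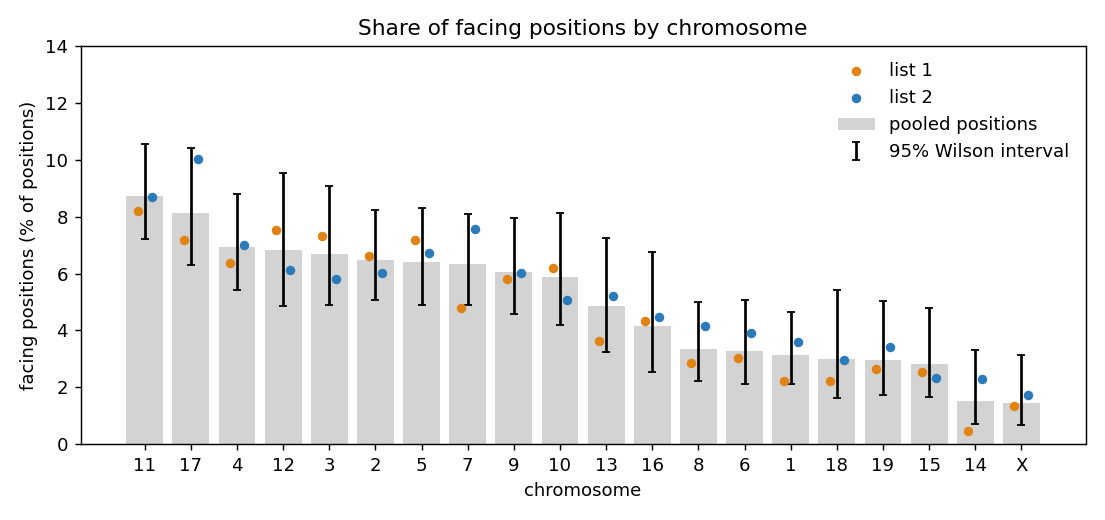
Bars give the share of pooled positions that face an opposite-strand position within 5000 nt (vertical axis, percent) for each named chromosome with a member (horizontal axis). Error bars are 95% Wilson intervals. Points give the share of each replicate list's positions that are members in the pool, with a partner in either list. Chromosomes 11 and 17 stand highest, at 8.74% and 8.11%, and chromosomes 14 and X lowest, at 1.53% and 1.46%.

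Presence in both replicates was not part of the rule and was compared between members and the other positions. Of all pooled positions 13.5% were listed by both replicates. Among the members the number was 83 of 681, or 12.2% (9.94 to 14.9%), near that background, and among the 11835 other positions it was 1602, or 13.5% (12.9 to 14.2%). Of the members, 273 were in replicate 1 only and 325 in replicate 2 only. Of the 356 members in replicate 1, 23.3% recurred in replicate 2 (19.2 to 28.0%), against 24.0% of its other positions (23.0 to 25.1%). Of the 408 members in replicate 2, 20.3% recurred in replicate 1 (16.7 to 24.5%), against 23.6% (22.7 to 24.7%). Positions in convergent pairs only were listed by both replicates in 12.0% of cases (67 of 558, 9.57 to 14.97%) and those in divergent pairs only in 13.3% (14 of 105, 8.11 to 21.1%). In each of these comparisons the intervals overlapped. Overlap does not show equal recurrence, the intervals treat positions as independent, and no difference by membership or orientation was tested.

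Within the members, recurrence varied with distance to the nearest opposite-strand position. It was 18.2% at 1 to 1000 nt (25 of 137, 12.7 to 25.6%), 14.9% at 1001 to 2000 nt, 10.9% at 2001 to 3000 nt, 14.5% at 3001 to 4000 nt and 4.29% at 4001 to 5000 nt (7 of 163 positions in 77 loci, 2.10 to 8.60%). The intervals of the first and the fifth kb did not overlap, and that of the fifth lay below the 13.5% of the other positions. Just outside the limit, at 5001 to 6000 nt, it was 7.75% (11 of 142, 4.38 to 13.3%), and at 6001 to 7000 nt 17.6% (18 of 102, 11.5 to 26.2%). It was 13.6% at 7001 to 8000 nt. The highest of the 10 classes was 8001 to 9000 nt, at 20.4% (22 of 108, 13.9 to 28.9%). Recurrence was thus not highest in the first kb. Among the members, positions with a same-strand neighbour within 1 kb were also most frequent in the fifth kb, at 60.7% (53.1 to 67.9%). In the first kb they made up 41.6% (33.7 to 49.98%). Outside the limit, at 9001 to 10000 nt, their share was 64.8% (55.4 to 73.2%) and recurrence was 13.9% (8.60 to 21.7%). The part of such neighbours in the low recurrence was not tested. The distance classes share loci, 10 of them were looked at, and no test was made.

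**Figure D5:**
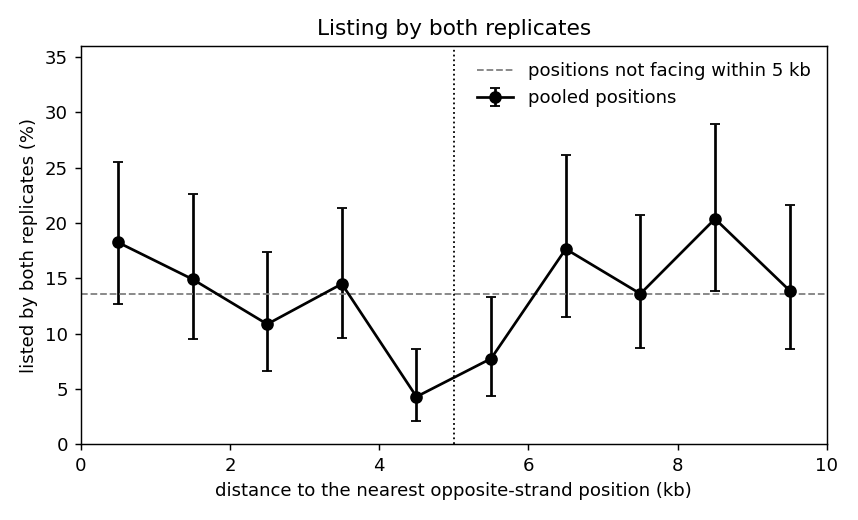
Points give the share of pooled positions listed by both replicates (vertical axis, percent) by distance to the nearest opposite-strand position in 1 kb classes (horizontal axis, kb), with 95% Wilson intervals. The dashed line is the 13.5% of positions that face none within 5000 nt, the dotted line marks that limit, and the lowest point is 4.29% at 4001 to 5000 nt.

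Members had company on their own strand more often than other positions, with intervals that did not overlap. Of the members, 52.1% had another position within 1 kb on their own strand (48.4 to 55.9%), as did 46.1% of other positions (45.2 to 47.0%). The share was 55.6% for positions in convergent pairs only (51.4 to 59.6%) and 37.1% for those in divergent pairs only (28.5 to 46.7%), and these intervals did not overlap. A crowded stretch offers more positions to face, so membership and crowding are linked by the rule. At equal crowding, members without a same-strand neighbour were listed by both replicates in 13.5% of cases (44 of 326), as were 13.2% of other such positions. With 1 neighbour the shares were 12.6% for members and 14.1% for other positions, and with 2 neighbours 11.2% and 12.4%. With 3 or more neighbours they were 5.17% (3 of 58, 1.77 to 14.1%) and 14.9% (212 of 1420, 13.2 to 16.9%). The intervals for 3 or more neighbours overlapped only narrowly, and the difference was not tested. They treat positions as independent, although crowded positions can lie in the same stretch.

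A list could repeat a position on further lines, a property whose meaning the files do not give. Of the members, 46 were on 2 or more lines in either list, or 6.75% (5.10 to 8.89%), against 6.62% of other positions (6.19 to 7.09%). The share was 7.17% for positions in convergent pairs only (5.31 to 9.61%) and 5.71% for those in divergent pairs only (2.64 to 11.9%). In both comparisons the intervals overlapped, and no difference was tested.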

How the data were processed

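The authors deposited 1 list of m6A positions per replicate, and columns of chromosome, start and strand were used. Per the submitters' processing notes, coordinates are on mm9, and CASAVA and BWA 0.7.10 were used. How sites were called and filtered is not given here, and it decides which positions are listed. Coordinates are printed 1-based, and each printed end was computed from the start for an interval of 5 nt.

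Distinct positions of both lists were pooled and all opposite-strand combinations with starts at most 5000 nt apart were taken as pairs. Loci are members linked by pairs. Named are the 5 closest pairs of each orientation, pairs within 1000 nt with both positions in both lists, the 5 loci with most members (ties by chromosome and coordinate) and the pairs around the limit. Members and rules were chosen with earlier results of these data known. Shares carry 95% Wilson intervals, and no test over positions was made. The code was tested on simulated lists and recovered all 300 convergent and 80 divergent pairs placed. Other limits, units and sets of positions were tried as alternatives. Python 3.11.15, pandas 2.3.3, networkx 3.6.1 and statsmodels 0.14.6 were used. Genes, transcript regions and sequence were not analysed here.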

Additional observations from a re-analysis of the deposited data

How the results depend on the processing

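In all 46 values were recomputed: 19 lay within 1.5 times the main count or the 95% interval of the main share, 27 moved beyond it and 0 reversed. Only convergent shares could reverse, by falling below 50%. Counts and the share listed by both replicates could not, and a value of exactly 50% was not labelled as reversed. Limits of 1000, 2000 and 10000 nt gave 137, 251 and 1266 members, 93, 185 and 1189 pairs, and 18.2%, 16.7% and 13.1% of members listed by both replicates; the convergent share was 78.5%, 84.3% and 81.1%. Replicates 1 and 2 alone gave 230 and 289 members, 152 and 200 pairs, convergent shares of 82.2% and 88.5% (79.4% and 80% within 1 kb), and 25.2% and 19.0% of members listed by both, higher by construction because 1 list replaces the pool. Only positions in both lists left 19 members and 10 pairs, 70.0% of them convergent, and 1 of 2 within 1 kb (50%), so the excess of convergent pairs is not measured in that small set. Same-strand groups as the unit, each entered by its lowest position, gave 265 pairs, 80% convergent (69.4% within 1 kb). Mutual nearest pairs numbered 206, with 80.1% convergent (73.1% within 1 kb). Strand changes, chosen after seeing the data, gave 78.3% (72.7% within 1 kb). Mutual nearest pairs and strand changes both count a dense stretch fewer times. Leaving out unplaced contigs or, chosen after seeing the data, the 5 largest loci moved none of the 5 results beyond its limit. No paired analysis was possible because the design has 1 group. Depth is unknown, so a position absent from a list is not shown to be unmethylated.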

Other observations

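The 29 loci with a facing pair in each replicate held 152 of the 681 members, and their closest pairs lay from 5 to 4151 nt apart with a median of 1493 nt. The convergent locus on chromosome 5 from 145888918 to 145893791, which holds pairs already described, had 3 of its 5 positions in both lists, the most of these 29 loci, with 2 pairs in replicate 1 and 6 in replicate 2. Among loci not described above, a convergent one on chromosome 1 from 38106148 to 38111097 had 4 positions, 1 on each strand in each replicate, and none in common. On chromosome 12 from 32011527 to 32018375, 3 plus-strand and 4 minus-strand positions gave 1 pair in replicate 1 and 4 in replicate 2, again with no position in common. A locus on chromosome 3 from 94809098 to 94814834 had a pair of plus-strand positions 19 nt apart between minus-strand positions on both sides, giving 6 convergent and 2 divergent pairs, 2 in each replicate alone. These loci were chosen after their values were seen.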
